A study of Apis mellifera with 6 samples.

Results

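Ecr, Usp, E74 and E75 encode the core of the ecdysone response in the honey bee, and all 4 transcripts were measured in the midgut of bees maintained at 35 °C or 45 °C. They were chosen by name from a set of 10 symbols of ecdysone and juvenile hormone regulators, and are the members of that set that appear as IDs among the 10151 genes of the count tables. Kr-h1, Ftz-f1, Hr38, Hr3, Hr46 and Met are not listed under these symbols and were not analysed here. The choice went by name and not by any measured value, but it was made with earlier results of these data known.

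RNA-seq was done on 6 libraries, after poly(A) selection, each made from the midgut of 1 Apis mellifera worker, with 3 libraries per temperature. By the labels, bees of both groups received sucrose with 0.5% DMSO, for 4 h at 35 °C or at 45 °C, the latter being the heat shock. The methods describe a North American mix of subspecies from outbred colonies, with 1 colony per experiment, and mention DMSO-fed controls only for other experiments, so this feeding is known from the labels alone. In those other experiments DMSO was fed for longer than 4 h. Whether the 35 °C libraries, taken over from elsewhere, are such longer-fed controls could not be settled, and every comparison is between the groups as labelled. Each library at 35 °C, and no library at 45 °C, is marked as taken over from another series, and the effect of temperature cannot be told apart from that of the series. Levels are normalized counts, that is, the number of reads on a gene divided by a size factor for its library.

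Ecdysteroids act through a heterodimer of 2 nuclear receptors. Ecr binds the hormone and Usp, the insect relative of the vertebrate retinoid X receptors, is its partner on DNA. In Drosophila melanogaster the hormone-bound dimer turns on a small group of early genes, among them E74, which encodes an ETS domain transcription factor, and E75, which encodes a nuclear receptor that binds heme. These factors then set off later genes and feed back on the first ones. In the adult fly, ecdysone also acts on the stem cells of the midgut. Juvenile hormone is the other main hormone of this system, and in worker bees it is tied to the age at which foraging begins.

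Both subunits of the ecdysone receptor were higher at 45 °C, by nearly the same factor, while neither early gene passed the test. Ecr was 1.70-fold and Usp 1.71-fold higher (n = 3 libraries against 3 for each). E75 was 1.25-fold higher and E74 was 0.974 times its level at 35 °C, and both of their 95% intervals included no change. No member reached the cut-off for a differentially expressed gene, set at a log2 fold change beyond 1 in either direction together with an adjusted p under 0.05.

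**Figure D1:**
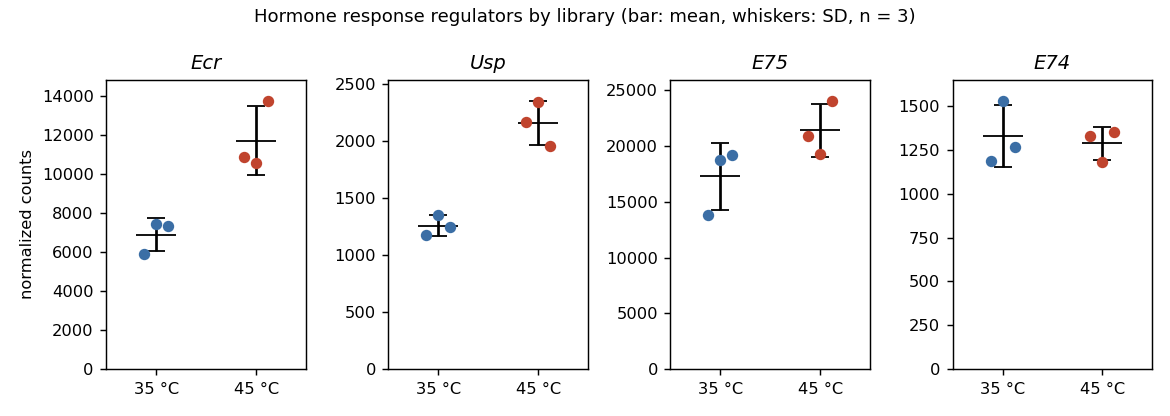
Normalized counts of Ecr, Usp, E75 and E74 in each library at 35 °C (blue) and 45 °C (red), with the mean (bar) and SD (whiskers) of 3 libraries, on axes that start at 0. The groups are separate for Ecr and Usp, nearly touch for E75 (19212 against 19314) and overlap for E74.

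Ecr, the hormone-binding subunit, had 5908, 7418 and 7309.9 normalized counts in replicates 1, 2 and 3 at 35 °C and 10852, 10565 and 13739.7 at 45 °C. Every heated midgut lay above every midgut at 35 °C, and replicate 3 at 45 °C was the highest of all. The means were 6879 ± 842 and 11719 ± 1756 (SD, n = 3 each). The log2 fold change was 0.77 ± 0.16 (SE; limma, adjusted p = 0.00833 over all genes), which corresponds to a factor of 1.70 with a 95% interval from 1.32 to 2.20. Since that interval extends past a factor of 2, the data do not place Ecr on one side of the fold change that the cut-off asks for.

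Usp, the partner of Ecr, had 1177, 1356 and 1246 normalized counts at 35 °C and 2172, 2348 and 1964 at 45 °C. Here too the groups did not overlap, but replicate 3 at 45 °C, the highest library for Ecr, was the lowest of the heated midguts. The means were 1259 ± 90.2 and 2161 ± 192 (SD, n = 3 each), and the log2 fold change was 0.78 ± 0.12 (SE; limma, adjusted p = 0.00269). The factor of 1.71 had a 95% interval from 1.41 to 2.09, which also extends past a factor of 2. Of all genes, 79.5% had a smaller log2 fold change than Ecr and 79.8% a smaller one than Usp, so both lay well inside the range of all genes in this comparison.

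E75, a nuclear receptor induced by ecdysone in flies, had 13849.6, 18795 and 19212 normalized counts at 35 °C and 20924, 19314 and 24037 at 45 °C. The groups were separate only because the lowest heated library lay just above the highest one at 35 °C, and replicate 1 at 35 °C stood below the rest. The means were 17285.5 ± 2983 and 21425 ± 2401 (SD, n = 3 each). The change on the log2 scale of 0.32 ± 0.18 (SE; limma, adjusted p = 0.192) did not pass the test, with a 95% interval of the factor from 0.936 to 1.66. Without replicate 1 at 35 °C it was 0.17, with an adjusted p of 0.392.

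E74, the ETS factor, had 1191, 1529.9 and 1267 normalized counts at 35 °C and 1331, 1180.2 and 1356 at 45 °C. These values overlapped. The means were 1329 ± 178 and 1289 ± 95.2 (SD, n = 3 each), and the log2 fold change was -0.04 ± 0.14 (SE; limma, adjusted p = 0.847). The 95% interval of the factor, from 0.782 to 1.21, leaves out a change as large as the one measured for either receptor subunit.

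Counted together, 0 of the 4 members passed the cut-off as higher and 0 as lower with limma, where 13.1% and 4.94% of all genes did. DESeq2 and edgeR also called 0, and 2 members, Ecr and Usp, had an unadjusted limma p under 0.05, both as higher, where 25.2% of all genes did as higher and 23.6% as lower. By the adjusted p alone, with no minimum fold change, 2 of 4 were higher and 0 lower, against 21.1% higher and 18.2% lower of all genes. Groups lay apart with the heated libraries higher for 3 of 4 members and for 26.8% of all genes. With so few members these shares are descriptions, and nothing is read from them about the set. For a single gene the exact permutation test, two-sided, cannot give a p below 0.1 with 3 libraries against 3, and it gave p = 0.1 for Ecr, Usp and E75 and p = 0.8 for E74.

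**Figure D2:**
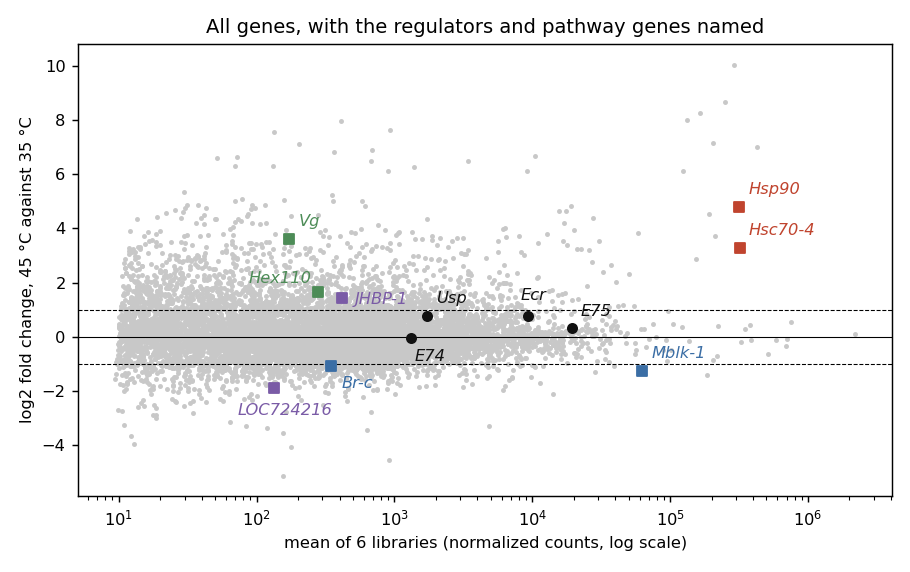
Log2 fold change at 45 °C against 35 °C (vertical axis) and the mean of 6 libraries in normalized counts (horizontal log axis) for all 10151 listed genes (grey), with the 4 regulators (black circles) and pathway genes (coloured squares). Dashed lines mark log2 fold changes of 1 and -1, and the regulators lie between them, from -0.04 to 0.78.

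The sequencing depth was ample for these genes. Reads on listed genes came to between 23305758 and 26921417 per library. The lowest read number of any member in any library was 1039, for E74, where counting alone gives an error of 3.10%. E75 never had fewer than 14852 reads, nor Ecr fewer than 6336. The spread between midguts was therefore mostly not counting error. The limma p-values set the difference between groups against the variation between single bees of each group. For this, each gene's variance is drawn toward that of genes of like level.

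How far the members varied between bees of 1 temperature was compared with the 500 genes closest to each in mean level. On the log2 scale, the SD of Usp was 0.10 at 35 °C and 0.13 at 45 °C, in the lower part of such genes (percentiles 29.8 and 28.4). For Ecr these values were 0.18 and 0.21, near the middle of its 500 genes (percentiles 47.6 and 59.4). E75 had 0.26 and 0.16, at percentiles 61.2 and 43.6, and E74 had 0.19 and 0.11, at percentiles 58.6 and 27.2. By this measure the members were not at the variable end of genes of like level.

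The members' fold changes depended on how the libraries were scaled. With library size alone the median gene moved from a log2 fold change of -0.01 to -0.39, and the members moved with it, to 0.39 for both Ecr and Usp, -0.07 for E75 and -0.43 for E74. On that scale Usp still passed by its adjusted p (0.0429 from edgeR), Ecr did not (0.117 from edgeR), and E74 passed as lower (0.0456 from edgeR). As a share of the library (CPM), Ecr ran from 272 to 334 at 35 °C and from 347 to 510 at 45 °C, and Usp from 54.1 to 61.0 and from 69.4 to 83.7, so the heated libraries stayed above the others for both subunits. E75 ran from 637 to 877 and from 669 to 893 CPM, which overlap, whereas E74 lay apart in the other direction, from 54.8 to 68.8 at 35 °C and from 42.1 to 50.4 at 45 °C. Relative to the median of all genes under the same setting, the log2 fold change stayed between 0.65 and 0.84 for Ecr, between 0.72 and 0.85 for Usp, between 0.13 and 0.41 for E75 and between -0.10 and 0.07 for E74 over 16 alternatives.

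**Figure D3:**
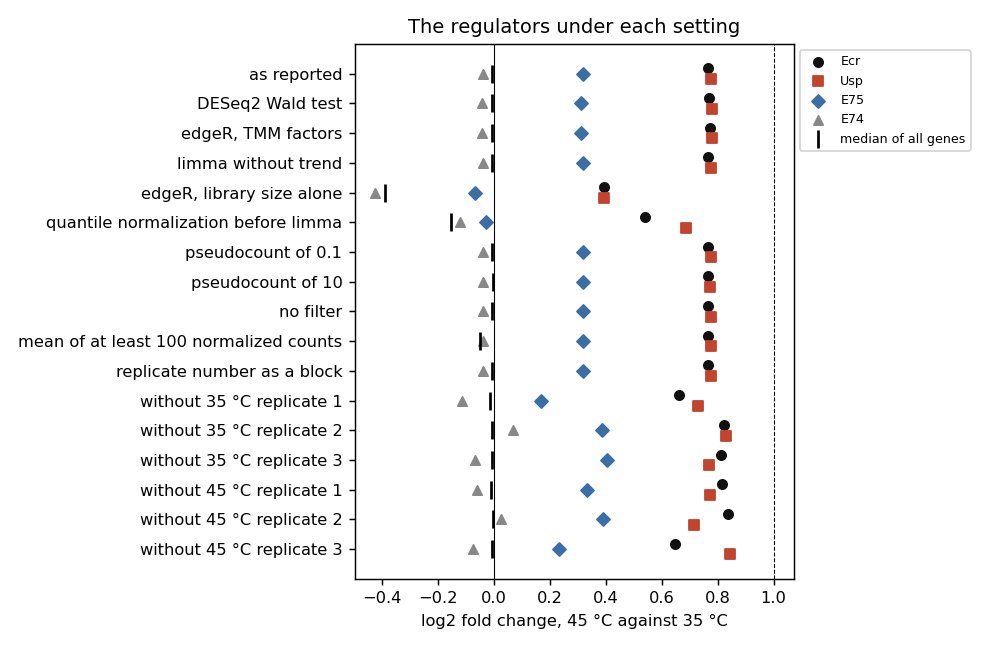
Log2 fold change at 45 °C against 35 °C of Ecr, Usp, E75 and E74 (symbols), with the median of all genes (vertical tick), in the comparison as reported and under each of 16 alternatives, 1 per line. The dashed line marks a log2 fold change of 1, which no symbol reaches, and with library size alone all symbols and the median (-0.39) shift to the left.

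A ratio of 2 genes within a library does not depend on library scaling. The ratio of Ecr to Usp reads was 5.021, 5.472 and 5.868 at 35 °C and 4.997, 4.4998 and 6.997 at 45 °C. These ranges overlap, and the log2 change of the ratio was -0.01 with an SE of 0.20 (exact permutation p = 0.9). The ratio of E75 to Ecr reads was 2.34, 2.53 and 2.63 at 35 °C and 1.93, 1.83 and 1.75 at 45 °C. All heated midguts had less E75 per Ecr than any midgut at 35 °C, a factor of 0.734 (log2 change -0.45 ± 0.06, SE, n = 3 each). E74 was also lower relative to both subunits in the heated midguts, with a log2 change of -0.80 ± 0.12 (SE) against Ecr and -0.82 ± 0.14 against Usp, with no overlap. The ratio of E75 to Usp overlapped between the temperatures (log2 change -0.46 ± 0.20, SE). Over the 6 pairs of members, 4 had groups that lay apart, each with the smallest exact permutation p that the design allows (0.1, or 0.15 after Benjamini-Hochberg adjustment over the 6 pairs). The pairs share genes and are not independent. The share of other gene pairs with ratios that lie apart was not computed, so this count is a description. These ratios of reads are not corrected for transcript length, so only their change between temperatures can be read.

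**Figure D4:**
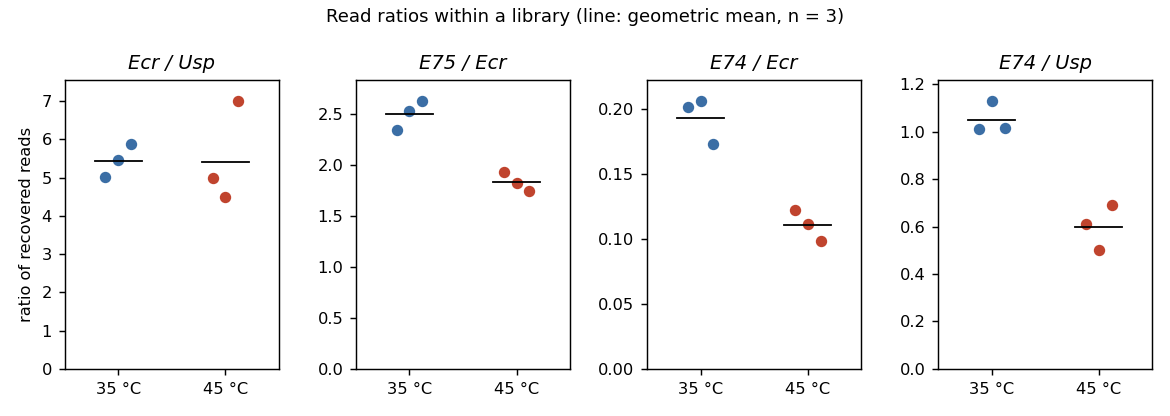
Ratio of recovered reads of Ecr to Usp, E75 to Ecr, E74 to Ecr and E74 to Usp in each library at 35 °C (blue) and 45 °C (red), with the geometric mean of 3 libraries (line), on axes that start at 0. Ecr to Usp overlaps between the temperatures, and in the other 3 panels every heated library lies below every library at 35 °C.

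Within a temperature the likeness between members differed from pair to pair, and 6 libraries fix such values only loosely. Over the 6 libraries, Pearson's r of the log2 values was 0.88 between Ecr and Usp and 0.88 between Ecr and E75, but these values carry the difference between temperatures. With each group's mean removed, r was -0.21 between Ecr and Usp and 0.94 between Ecr and E75. It was 0.67 between Ecr and E74, 0.18 between Usp and E74 and 0.004 between Usp and E75. By this measure within groups, E75 ranked 181 among all genes in likeness to Ecr. The 5 genes whose values over the 6 libraries were most like those of Ecr were LOC107963996, LOC102655661, LOC413753, Mir6042 and LOC408424, with r from 0.994 to 0.996. For Usp they were LOC107965384, LOC551892, LOC551526, LOC107965226 and LOC102655843, with r from 0.996 to 0.998. An r above 0.95 is common over 6 libraries, as 258 genes had one with Ecr and 486 with Usp. Of the genes named for Ecr, LOC107963996 had as few as 3 reads in a library and Mir6042 as few as 4.

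Each member was counted as a whole gene, so its transcripts cannot be told apart. RefSeq annotates 4 transcripts for Ecr, 10 for Usp, 5 for E75 and 11 for E74 in its table for Amel_HAv3.1, which is newer than the assembly behind the counts. In that table no gene overlaps E75. A long non-coding RNA gene, LOC107964817, overlaps Ecr, and it rose from 10.3, 13.5 and 16.8 normalized counts at 35 °C to 49.2, 128 and 80.0 at 45 °C (log2 fold change 2.50, standard error 0.41, limma, adjusted p = 0.00316). LOC102653672, 1 of the long non-coding RNA genes that overlap Usp, rose from 67.5 ± 13.3 to 206 ± 27.5 (SD, n = 3 each), by a log2 fold change of 1.60 ± 0.21 (SE; limma, adjusted p = 0.00143). Another of them, LOC102653781, had a log2 fold change of 0.05 (limma, adjusted p = 0.917). Neither gene listed in the tables that overlaps E74, LOC102654462 or LOC725036, passed the cut-off. Both RNAs that rose had far fewer counts than the receptor gene they overlap. Whether counting used strand is not stated, so reads of a receptor gene and of such an RNA may have been counted on each other, and their part in the result was not tested.

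The chaperones that hold steroid receptors in a hormone-binding state, as known from vertebrates and flies, had larger fold changes than the receptor subunits. Hsp90 had 43592, 19949 and 11776 normalized counts at 35 °C and 671929, 593271 and 561035 at 45 °C, a log2 fold change of 4.80 ± 0.44 (SE; limma, adjusted p = 3.09e-04). Hsc70-4, which works with Hsp90, rose by 3.28 ± 0.26 (SE; limma, adjusted p = 1.41e-04). Both are among the 15 other genes of these hormone pathways that could be found by symbol or synonym, of which 5 were higher and 1 was lower by the cut-off, beside 13.1% and 4.94% of all genes. Of the 5 higher genes, 2 are these heat shock chaperones. The median log2 fold change of the 15 was 0.22, and that of all genes -0.01. Many genes of the pathways have no entry under their usual symbol, so the 15 are not a full list, and 0 of the immediate early genes looked for were found.

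**Figure D5:**
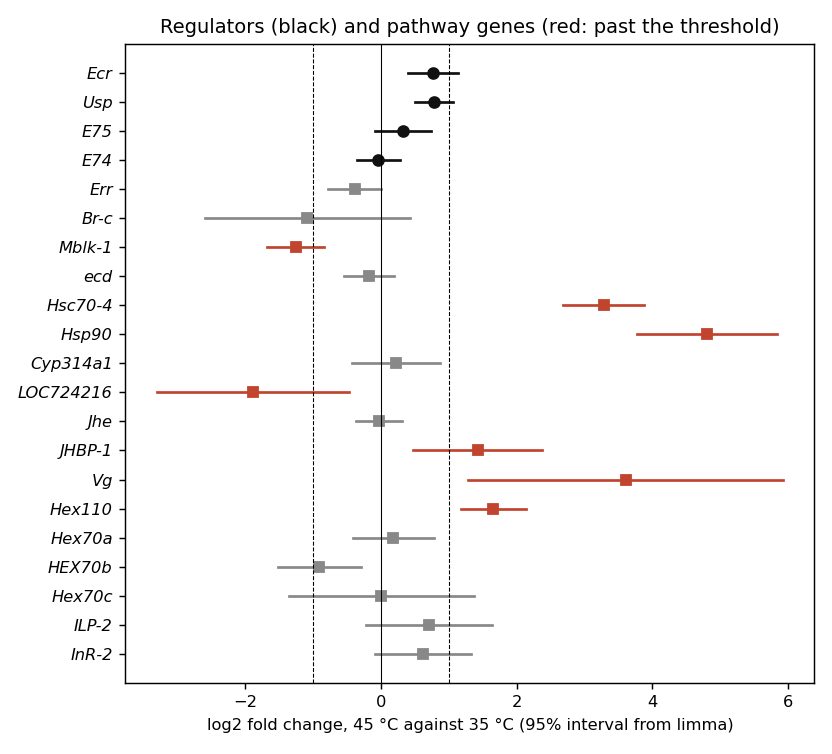
Log2 fold change at 45 °C against 35 °C with its 95% interval from limma, for the 4 regulators (black circles), the 15 listed pathway genes, and Mblk-1 and ecd (squares, red where past the cut-off, grey otherwise). Dashed lines mark 1 and -1; Hsp90 (4.80) and Vg (3.60) lie farthest to the right and LOC724216 (-1.89) farthest to the left.

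Among the other listed nuclear receptor and ecdysone genes, Br-c, the broad gene of zinc finger factors, had 187, 591 and 605 normalized counts at 35 °C and 73.9, 271 and 344 at 45 °C. Replicate 1 was low at both temperatures, and the log2 fold change of -1.08 ± 0.65 (SE; limma, adjusted p = 0.222) did not pass. Err, an orphan nuclear receptor that controls metabolic genes in flies, had a log2 fold change of -0.39 ± 0.17 (SE; limma, adjusted p = 0.107). Cyp314a1, the shade enzyme that converts ecdysone to its active form, had 157 ± 37.6 and 184 ± 54.8 normalized counts (SD, n = 3 each; log2 fold change 0.22, limma, adjusted p = 0.554).

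A pair of genes was added after it was seen that their IDs are listed. Mblk-1, the honey bee homolog of the ecdysone-induced E93 gene of flies, had 77235, 100889 and 87015 normalized counts at 35 °C and 38958, 35422 and 35887 at 45 °C. It fell in every heated midgut to below any value at 35 °C, by a log2 fold change of -1.26 ± 0.18 (SE; limma, adjusted p = 0.00181), and was past the cut-off under each of the 16 alternatives, with -1.16 to -2.27. For ecd, the homolog of ecdysoneless, which flies need for ecdysteroid production and for RNA splicing, the log2 fold change was -0.17 ± 0.16 (SE; limma, adjusted p = 0.417).

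On the juvenile hormone side, 3 of the listed genes could be found. LOC724216, which the RefSeq table gives the synonym JHAMT, the methyltransferase of the last steps of juvenile hormone synthesis, had 389, 87.2 and 166 normalized counts at 35 °C and 68.9, 22.7 and 67.0 at 45 °C. It was lower in all heated midguts, with a log2 fold change of -1.89 ± 0.61 (SE; limma, adjusted p = 0.0420). JHBP-1, named as a juvenile hormone binding protein, had 259, 247 and 141 at 35 °C and 922, 617 and 309 at 45 °C, a log2 fold change of 1.42 ± 0.41 (SE; limma, adjusted p = 0.0280). Both calls were fragile. The call of LOC724216 was lost without replicates 1 or 3 at 35 °C or any 1 replicate at 45 °C (-1.33 and -1.94, then -2.16, -1.38 and -2.14 for replicates 1, 2 and 3), and that of JHBP-1 without replicate 3 at 35 °C or replicates 1 or 2 at 45 °C (1.14, 1.06 and 1.35). With limma without trend their adjusted p was 0.0667 and 0.0502. Jhe, an esterase gene named for the breakdown of juvenile hormone, had 2397, 3381 and 2735 normalized counts at 35 °C and 2849.96, 2679.7 and 2746 at 45 °C (log2 fold change -0.03, limma, adjusted p = 0.904).

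Among genes whose products are tied to these hormones in bees, Hex110, a storage protein gene, rose from 106, 130.3 and 165 normalized counts at 35 °C to 439, 465 and 357 at 45 °C (log2 fold change 1.66, standard error 0.21, limma, adjusted p = 0.00106). Vg, which encodes the yolk protein precursor vitellogenin, had 5.595, 87.2 and 13.2 at 35 °C and 84.9, 342 and 505 at 45 °C. The groups overlapped, and the log2 fold change of 3.60 ± 1.00 (SE; limma, adjusted p = 0.0246) lost its call without replicates 1 or 3 at 35 °C or replicates 2 or 3 at 45 °C (2.80, 3.35, 3.37 and 3.08). HEX70b, another storage protein gene, had 232, 338 and 252 at 35 °C and 99.7, 164 and 181 at 45 °C. Its groups lay apart, with all heated midguts lower, and its log2 fold change of -0.91 (limma, adjusted p = 0.0297) missed the cut-off by its size alone. It was past the cut-off in 4 of 16 alternatives, with -1.25 under library size alone, -1.02 without replicate 1 at 35 °C, and -1.003 and -1.08 without replicates 2 or 3 at 45 °C. Leaving out other libraries weakened it. Its adjusted p from limma was 0.0951 and 0.0643 without replicates 2 or 3 at 35 °C, and 0.0647 without replicate 1 at 45 °C. Hex70a, Hex70c and the insulin-like gene ILP-2 had log2 fold changes of 0.18, 0.003 and 0.71 and did not pass the cut-off, nor did InR-2, although ILP-2 passed without replicate 1 at 35 °C (1.09, limma, adjusted p = 0.0484). As these libraries come from whole midguts, a change in the number of cells of a type and a change of RNA per cell cannot be told apart. Hex110 and Vg are also 2 of the 5 listed fat body markers, whose sum was 643 to 834 at 35 °C and 923 to 1405.5 at 45 °C. The other 3 fat body markers are Hex70a, HEX70b and Hex70c. Of these, 0 were past the cut-off as higher, and HEX70b was lower in all heated midguts. The part of fat body tissue in these values was not tested.

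Marker genes of tissues were looked up by symbol. Hbg3, an alpha-glucosidase gene listed as an enterocyte marker, is also known from the hypopharyngeal gland, so it does not identify midgut tissue. It had between 1089 and 1578 at 35 °C and between 1863 and 1982 normalized counts at 45 °C. Summed muscle markers (5 of 11 symbols listed) overlapped, from 4280.2 to 7011 and from 5384 to 6435. The 2 markers listed for head glands, Mrjp4 and Hbg2, were summed. Hbg2 is also known from the midgut, so this sum does not identify head gland tissue. It ran from 478510 to 804960 and from 724840 to 1021600. The sums of 2 enteroendocrine markers ran from 538 to 600.4 and from 484 to 710.3. Summed neuronal markers (4 of 7) ran from 5761 to 6551 at 35 °C and from 8896 to 11557 at 45 °C, and Dl, the only stem cell marker listed, from 685 to 776 and from 927 to 1376. The neuronal sum, the fat body sum, Dl and Hbg3 were thus each higher at 45 °C without overlap. Of all genes, 26.8% were also apart in that direction, as were Ecr and Usp. No listed neuronal marker was past the cut-off, nor was Dl or Hbg3, and the other sums overlapped. Within the fat body sum only Vg and Hex110 were past the cut-off as higher, while HEX70b was lower in all heated midguts. The sums are unweighted, so genes with more counts weigh most. Syt1, a neuronal marker, had a mean of 63.1 normalized counts over the 6 libraries and adds little to the neuronal sum. The part of cell composition in the receptor values was not tested. Of the marker lists for muscle and enteroendocrine cells, 1 gene each was past the cut-off as lower, and 0 listed markers of any type were at 0 in a library.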

How the data were processed

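Per the labels and the methods, reads were trimmed (Trimmomatic 0.36), mapped to the Amel 4.5 genome (STAR is named in the submitters' processing notes) and counted per gene (Subread is named there). Strand setting, annotation release and the other tool versions: not given in the sources used here. Each deposited signal value is a gene count, which the authors scaled by the size factor of its library (DESeq2). All values (100%) were within 0.01 of a whole multiple of 1 step per library, so whole reads could be recovered, and 10151 genes are listed. All 6 columns matched a sample by title.

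Values were compared as log2(value + 1) in limma 3.58.1 (R 4.3.3, trended empirical Bayes, unblocked), for genes whose mean reached 1, which all did, with Benjamini-Hochberg adjustment over all 10151 genes. The pseudocount shrinks fold changes of low genes. DESeq2 1.42.0 and edgeR 4.0.16 on recovered reads, other scalings, pseudocounts, filters, a replicate block and each library left out were alternatives. Each tool was tested on simulated data. Libraries of a temperature differed by a mean chi-square per gene of at least 44.8, so each counted as 1 replicate.

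The members and lists were chosen with earlier results of these data known. Named genes were all members, the called genes of each list and up to 3 uncalled ones of highest mean, and the 5 genes of highest Pearson r with each of the 2 members of largest fold change, Ecr and Usp. Pathway and marker lists were matched by symbol or synonym, and Mblk-1 and ecd were added after the listed IDs were seen. Transcript counts and overlaps came from the RefSeq table (Amel_HAv3.1). A planned search of promoters for motifs was not run, as no sequence was used here. Intervals from reads cover counting error only.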

Additional observations from a re-analysis of the deposited data

How the results depend on the processing

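Ecr and Usp kept a higher level at 45 °C under all 16 alternatives of test, scaling, pseudocount, filter, block and library left out, and neither was past the full cut-off in any of them. Their adjusted p was below 0.05 in 15 of 16 for Ecr (0.00015 to 0.117) and in 16 of 16 for Usp (3e-06 to 0.0429). With no minimum fold change 2 members were called higher in place of 0, by construction. With library size alone 1 member was higher and 1 lower by the adjusted p, a count chosen after seeing the data, and the E75 log2 fold change turned to -0.068. After quantile normalization the E75 log2 fold change was -0.027. With 1 library left out, the log2 fold change ran from 0.65 to 0.84 for Ecr, from 0.72 to 0.84 for Usp, from 0.17 to 0.40 for E75 and from -0.11 to 0.07 for E74, whose log2 fold change turned to 0.067 without replicate 2 at 35 °C and 0.024 without replicate 2 at 45 °C. Of all genes, 1327 were higher and 501 lower by the cut-off. These numbers were 838 and 1625 with library size alone, 804 lower after quantile normalization, 872 higher with a mean of at least 100 (fewer genes tested, 7436), and 2143 and 1844 with no minimum fold change. With 1 library left out they ran from 1177 to 1309 and from 382 to 545. Of the 15 pathway genes, 5 were higher and 1 lower. The lower count was 0 with limma without trend and 2 with library size alone, 2 with no minimum fold change, and leaving out 1 library gave 3 to 5 higher and 0 to 1 lower. Except where stated, the cause was not tested.

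Whether the replicate numbers pair the samples could not be settled from 6 libraries. Deviations from the group means correlated by 0.17, 0.10 and 0.01 between same-numbered libraries, for genes whose mean reached 100. Between libraries of other numbers the correlations ran from -0.15 to 0.12, and not every library correlated best with its own number. With the replicate number as a block, 2 pathway genes were lower in place of 1, as Br-c was added, and no member's call changed (Ecr 0.77 with an adjusted p of 0.00857, Usp 0.78 with 0.00466, both from limma). Depth did not limit the members, and sets a limit for genes such as Vg, with as few as 6 reads in a library.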
